A study of Homo sapiens with 6 samples.

Results

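The IFIT genes encode interferon-induced proteins with tetratricopeptide repeats and lie side by side on human chromosome 10. IFIT1, IFIT2, IFIT3 and IFIT5 were taken from the count table by gene symbol and are 4 of its 78932 genes. All 4 were among the 18474 genes tested, those that reached 10 counts in 3 or more of the 6 libraries, and each passed in both groups. The genes were chosen from earlier results of the same comparison of siTRIM28 with siNC libraries. Their levels and fold changes in that comparison are therefore given as a description, without a test.

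IFIT transcripts are scarce in most resting cells. They are made when interferon acts through its receptor and the JAK kinases, or when an RNA sensor such as RIGI activates IRF3 directly. Both routes act on interferon-stimulated response elements, short promoter sites built from repeats of GAAA. IFIT1 binds RNA with an incompletely methylated cap, IFIT2 and IFIT3 bind IFIT1 and form complexes with it, and IFIT5 binds RNA with a triphosphate end on its own.

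The study used T24, an established line from a human bladder carcinoma, and asked which transcripts change when TRIM28 is silenced. TRIM28 is a co-repressor that KRAB zinc finger proteins bring to chromatin, where it silences retroelements and genes near them. Of the 6 cultures, 3 received a non-targeting siRNA (siNC) and 3 an siRNA against TRIM28 (siTRIM28). All 6 therefore carried an RNA duplex and a transfection reagent. The sources do not state which of the TRIM28 siRNAs was used or when the cells were harvested. A change due to the loss of TRIM28 and one due to the duplex given cannot be told apart with 1 siRNA treatment against 1 control.

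The counts summed to between 12989362 and 13942383 in siNC and between 11712623 and 14018052 in siTRIM28. TRIM28 itself had 1419, 1393 and 1382 counts in siNC replicates 1, 2 and 3 and 130, 96 and 109 in siTRIM28 replicates 1, 2 and 3, which fits the labels. The mesenchymal markers VIM, ZEB1, CDH2 and FN1 were all detected, with a summed level of 1563 to 1610 CPM (counts scaled to library size) in siNC and 1817 to 1930 in siTRIM28. Of the 6 epithelial markers, 3 (CDH1, EPCAM and KRT19) had under 10 counts in every library. The sum ran from 189.1 to 196.7 CPM in siNC and from 207.2 to 214.6 in siTRIM28. It came mostly from KRT8, with means of 103.5 and 114.0 CPM in siNC and siTRIM28, and KRT18, with 86.1 and 91.2. KRT7 had 2.84 and 4.20. Of the 5 leukocyte markers, CD3E was at 0 and the other 4 were under 10 counts in every library. T24 cells thus showed few of the urothelial markers, with 4 of the 7 luminal and 3 of the 5 basal ones under 10 counts throughout. The summed level of the luminal markers was 8.81 to 9.02 CPM in siNC and 10.8 to 12.1 in siTRIM28, and that of the basal ones, nearly all from CD44, 709.4 to 725.2 and 432.2 to 439.2 CPM. The luminal markers did not rise together. In mean CPM, siNC then siTRIM28, UPK1A had 0.874 and 3.41, PPARG 7.14 and 7.52, and GATA3 0.585 and 0.249. UPK1A had 4 to 17 counts in siNC, and GATA3 at most 10 in any library. The basal marker TP63 had 0.469 and 0.966, from 4 to 9 counts in siNC and 10 to 15 in siTRIM28. It passed the count filter only through siTRIM28, so no direction is read from it beside that of CD44. The part of these markers in the IFIT difference was not tested. The replicates were unequally close. The chi-square of counts per degree of freedom was 1.08 for siNC replicates 1 and 2 and 1.22 for siTRIM28 replicates 2 and 3, against 4.17 to 6.25 for the other pairs, and all 6 libraries were kept as separate replicates.

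The 4 genes read from the same strand of chromosome 10 (GRCh38, coordinates as in the count table). In order of rising coordinate they are IFIT2, IFIT3, IFIT1 and IFIT5. IFIT2 (ENSG00000119922) spans 89283694 to 89309271, IFIT3 (ENSG00000119917) 89327307 to 89377473, IFIT1 (ENSG00000185745) 89392546 to 89406486 and IFIT5 (ENSG00000152778) 89414568 to 89421514. The whole span is 137.8 kb. A further family member, IFIT1B, lies inside it between IFIT3 and IFIT1, and the pseudogene IFIT6P lies within the annotated span of IFIT3.

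The promoters were searched because response elements there are the known control sites of this family. The RefSeq promoter windows (GRCh38.p14, 250 bases before to 50 bases after each transcript start) gave entries for IFIT1, IFIT3 and IFIT5, with 2 starts for IFIT3. The motif searched was GAAANNGAAA, which reads TTTCNNTTTC from the other strand, and overlapping matches were counted. Each of these windows held 2 or 3 matches, all of them reading as GAAA on the strand opposite to the gene. The windows below are 30 bases each from the plus strand, with the match in capitals.

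IFIT1 match a, chr10:89392497-89392526: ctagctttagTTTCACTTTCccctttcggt
IFIT1 match b, chr10:89392510-89392539: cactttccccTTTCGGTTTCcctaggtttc
IFIT3 upstream start match a, chr10:89327831-89327860: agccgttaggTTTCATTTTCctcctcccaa
IFIT3 upstream start match b, chr10:89327865-89327894: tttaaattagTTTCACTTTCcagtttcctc
IFIT3 downstream start match a, chr10:89332425-89332454: acagattctgTTTCAGTTTCccctcaagag
IFIT3 downstream start match b, chr10:89332468-89332497: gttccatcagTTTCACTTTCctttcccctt
IFIT5 match a, chr10:89414513-89414542: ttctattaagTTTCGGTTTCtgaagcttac
IFIT5 match b, chr10:89414539-89414568: ttacgtttagTTTCGATTTCttaagtttca
IFIT5 match c, chr10:89414554-89414583: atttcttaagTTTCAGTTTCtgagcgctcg

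With the transcript start counted as 0, the matches of IFIT1 ran from −116 to −107 and from −103 to −94. Those of the downstream IFIT3 start ran from −94 to −85 and from −51 to −42. The 3 matches of IFIT5 lay closer to the start, from −45 to −36, from −19 to −10 and from −4 to 5, so that the last one crosses the start itself. In the GENCODE v29 annotation, the window of match b of each IFIT3 start reached into an exon of an IFIT3 transcript, and all 3 IFIT5 windows overlapped an exon of a transcript of LIPA, the gene on the opposite strand. The motif was held by 1255 of the 35116 promoter windows (3.57%), at least 2 matches by 91 (0.259%) and at least 3 by 13 (0.0370%). The window of IFIT1B held none. A match describes the letters of the window and does not show binding in these cells.

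**Figure D1:**
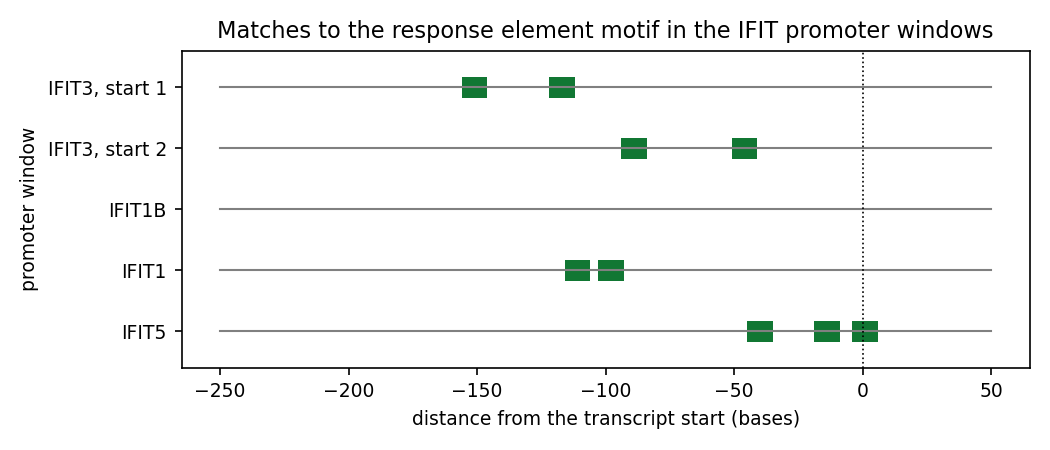
Positions of motif matches (green) in 5 promoter windows of 300 bases, with the distance from the transcript start in bases on the horizontal axis and the start as a dotted line. IFIT1 and both IFIT3 starts hold 2 matches each upstream of the start, IFIT5 holds 3 with the last one across it, and IFIT1B holds none.

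IFIT1, IFIT2 and IFIT3 were between 10.5 and 19.6 times as high in siTRIM28 as in siNC libraries, whereas IFIT5, the neighbour that was highest of the 4 in siNC, differed by less than the spread between libraries. The 3 genes that differed had no siNC value near any siTRIM28 value, and those of IFIT5 overlapped. The groups did not overlap, with siTRIM28 higher, in 3 of the 4 genes, where the same held for 26.3% of all genes tested. The choice of these genes used this contrast, so nothing is read from that count.

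IFIT2 had 53, 46 and 39 counts in siNC replicates 1, 2 and 3 and 826, 821 and 827 counts in siTRIM28 replicates 1, 2 and 3. Scaled by TMM, which corrects for library size and composition, these were 3.82, 3.32 and 3.06 CPM in siNC and 59.0, 69.3 and 69.8 CPM in siTRIM28. The lowest siTRIM28 library stood far above the highest siNC library. The means were 3.40 ± 0.385 CPM in siNC and 66.1 ± 6.13 in siTRIM28 (SD, n = 3 each). The log2 fold change was 4.27 with a standard error of 0.106, or 19.3-fold.

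IFIT3 had 56, 43 and 42 counts in the siNC libraries and 903, 815 and 856 in the siTRIM28 libraries. In CPM these were 4.03, 3.11 and 3.29 against 64.5, 68.8 and 72.3. The replicates of each group lay close together and the groups were far apart. The means were 3.48 ± 0.490 CPM in siNC and 68.5 ± 3.91 in siTRIM28 (SD, n = 3 each). The log2 fold change was 4.29 with a standard error of 0.0962, or 19.6-fold.

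IFIT1 had 65, 68 and 71 counts in siNC and 697, 642 and 656 in siTRIM28. In CPM these were 4.68, 4.91 and 5.57 in siNC and 49.8, 54.2 and 55.4 in siTRIM28, again without overlap. The means were 5.05 ± 0.460 and 53.1 ± 2.97 CPM (SD, n = 3 each). The log2 fold change was 3.39 (standard error 0.0861), or 10.5-fold, the smallest of the 3 genes that were higher.

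IFIT5 had 129, 135 and 117 counts in siNC and 119, 115 and 113 in siTRIM28. In CPM these were 9.29, 9.75 and 9.17 in siNC and 8.50, 9.71 and 9.54 in siTRIM28. The groups overlapped, with the siNC values inside or just above the siTRIM28 range. The means were 9.40 ± 0.306 and 9.25 ± 0.658 CPM (SD, n = 3 each), which differ by −0.03 on the log2 scale with a standard error of 0.0999. Upper-quartile scaling moved this fold change to 0.01 and leaving out siTRIM28 replicate 1 moved it to 0.03, so its sign was not settled.

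**Figure D2:**
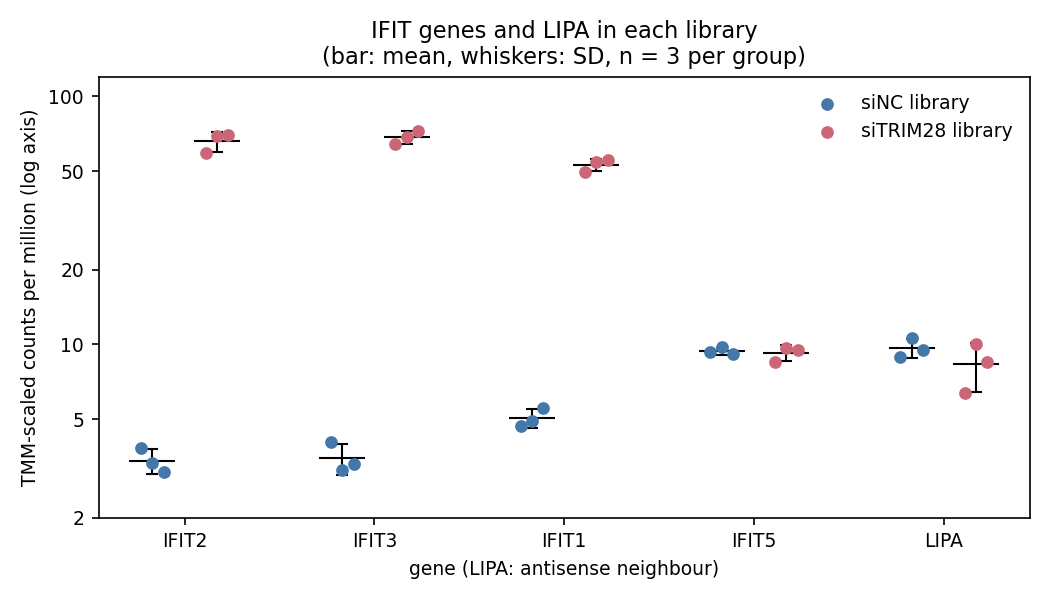
TMM-scaled CPM (log axis) of the 4 IFIT genes and LIPA in each siNC (blue) and siTRIM28 (red) library, with the mean and SD of 3 libraries in black. IFIT2, IFIT3 and IFIT1 sit between 3.06 and 5.57 CPM in siNC and between 49.8 and 72.3 CPM in siTRIM28, while IFIT5 and LIPA overlap between the groups.

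Among all genes tested, ordered by log2 fold change from the highest, IFIT3 was at rank 2, IFIT2 at rank 3, IFIT1 at rank 6 and IFIT5 at rank 10045 of 18474. Divided by the gene length in the table, so that genes can be compared with one another, the siNC level of IFIT3 exceeded that of 19.0% of the genes tested, and those of IFIT2, IFIT1 and IFIT5 exceeded 21.5%, 27.6% and 44.1%. In siTRIM28 the corresponding shares were 83.2% for IFIT3, 84.9% for IFIT2 and 80.8% for IFIT1. IFIT5 stayed at 43.4%. The 3 genes thus passed from the lower part of the expressed genes to the upper part, and IFIT5 kept its place below the middle. The share of IFIT3 depends on its length, 5067 bases in the table and 2640 exon bases in GENCODE v29. With the latter its siNC mean was 1.32 CPM per kb, above the 1.10 of IFIT1, so its place as the lowest is not settled. Shares of genes were not counted with that length.

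The order of the 4 genes turned over between the groups. In siNC the level per length was 2.15 ± 0.0700 CPM per kb for IFIT5, 1.10 ± 0.0997 for IFIT1, 0.786 ± 0.0889 for IFIT2 and 0.686 ± 0.0966 for IFIT3 (SD, n = 3). This order was the same in each of the 3 libraries. The ranges of IFIT2 and IFIT3 overlapped, from 0.707 to 0.882 and from 0.613 to 0.796 CPM per kb, so these neighbours in the order did not differ beyond their spread. IFIT1 and IFIT5 each stood apart from the rest. The place of IFIT3 rests on the length used. The table gives IFIT3 a length of 5067 bases, where GENCODE v29 has 2640 exon bases, and with the latter, chosen after seeing the data, IFIT3 had 1.18 to 1.53 CPM per kb in siNC, which overlaps IFIT1 and not IFIT2. The other 3 lengths differ less, with 4614, 4326 and 4369 bases in the table for IFIT1, IFIT2 and IFIT5 and 4613, 4101 and 4015 in GENCODE v29.

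In siTRIM28 the level per length was 15.3 ± 1.42 CPM per kb for IFIT2, 13.5 ± 0.772 for IFIT3, 11.5 ± 0.643 for IFIT1 and 2.12 ± 0.151 for IFIT5 (SD, n = 3). This order too was found in each of the 3 libraries. IFIT2 and IFIT3 again overlapped, from 13.6 to 16.1 and from 12.7 to 14.3 CPM per kb. The highest IFIT1 library, at 12.0 CPM per kb, was below the lowest IFIT3 library. With the exon bases of GENCODE v29 as length, IFIT3 stood above IFIT2, at 24.4 to 27.4 against 14.4 to 17.0 CPM per kb, and IFIT5 remained the lowest of the 4 in siTRIM28 and the highest in siNC.

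As a share of the summed level per length of the 4 genes, IFIT5 made up 44.1%, 47.7% and 45.0% in the siNC libraries and 4.98%, 5.10% and 4.90% in the siTRIM28 libraries. The share of IFIT1 was 23.2% ± 2.45 in siNC and 27.2% ± 0.378 in siTRIM28 (SD, n = 3). IFIT2 went from 16.6% ± 1.59 to 35.9% ± 0.972, and IFIT3 from 14.5% ± 1.78 to 31.9% ± 0.698. The make-up of the 4 transcripts therefore moved from one led by IFIT5 to one in which IFIT2 and IFIT3 took the largest shares. The level of IFIT5 itself overlapped between the groups, so its smaller share follows from the higher levels of the other genes. No IFIT protein or complex was measured. With the lengths of GENCODE v29 the share of IFIT5 was 40.0%, 44.3% and 41.7% in siNC and 4.09%, 4.23% and 4.04% in siTRIM28. IFIT3 then took 26.4%, 21.5% and 22.7% in siNC and 47.2%, 45.6% and 46.6% in siTRIM28, ahead of IFIT2 with 16.1%, 14.8% and 13.6% and with 27.8%, 29.6% and 28.96%. The 4 genes together had 21.1 to 21.8 CPM in siNC and 181.7 to 207.1 CPM in siTRIM28.

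**Figure D3:**
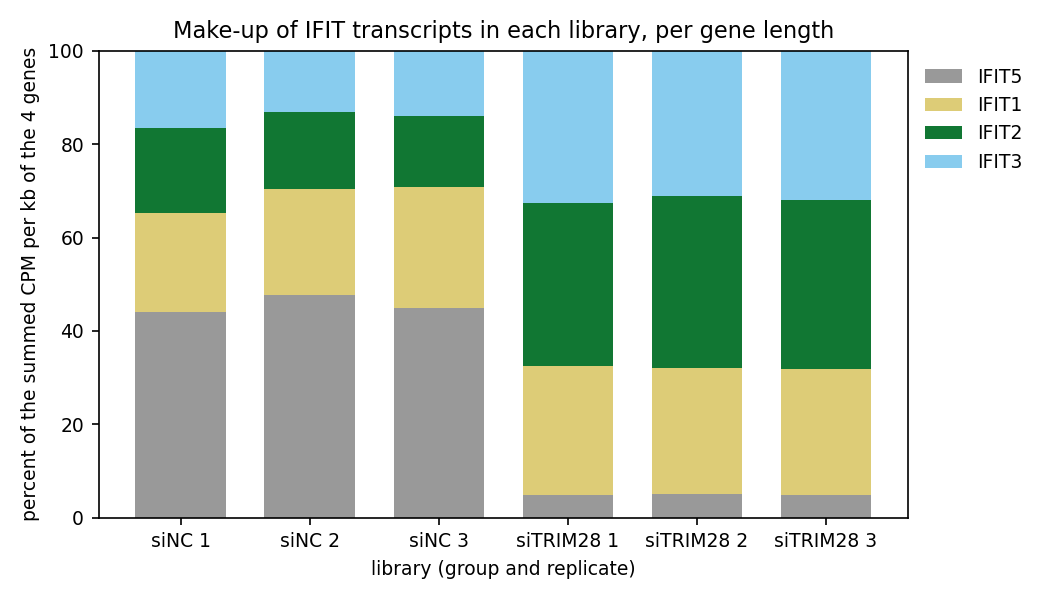
Share of each IFIT gene, in percent, in the summed level per length (CPM per kb) of the 4 genes, with 1 bar per library. IFIT5 (grey) takes 44.1% to 47.7% of each siNC bar and 4.90% to 5.10% of each siTRIM28 bar, while the shares of IFIT2 and IFIT3 are larger in every siTRIM28 bar than in any siNC bar.

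The 3 genes that were higher did not all move by the same factor. The log2 ratio of IFIT2 to IFIT3, per length, was 0.15, 0.33 and 0.12 in the siNC libraries and 0.10, 0.24 and 0.18 in the siTRIM28 libraries, which overlap, and the mean differed by −0.03. IFIT2 and IFIT3 thus kept their ratio within the spread between libraries. The log2 ratio of IFIT1 to IFIT2 was 0.20, 0.47 and 0.77 in siNC and −0.34, −0.45 and −0.43 in siTRIM28. IFIT1 was above IFIT2 in every siNC library and below it in every siTRIM28 library, a shift of −0.89 on the log2 scale or 1.85-fold. Against IFIT3, IFIT1 shifted by −0.91. These shifts between groups do not depend on the gene length.

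Replicate spread was small beside these differences. The coefficient of variation of IFIT1, IFIT2 and IFIT3 in siNC was 9.10%, 11.3% and 14.1%, each below the 12.1%, 14.7% and 14.6% that counting alone gives at 39 to 71 counts. In siTRIM28 the values were 5.58%, 9.27% and 5.71%, above the counting values of 3.88%, 3.48% and 3.41%. IFIT2 in siTRIM28 varied most in excess of counting, by a factor of 2.66. For IFIT5 the spread was below counting error in both groups, at 3.25% in siNC and 7.11% in siTRIM28.

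All 4 IFIT genes were lowest in siTRIM28 replicate 1, the library that stood apart from the other 2. On the log2 scale they were below their group mean there by −0.09 for IFIT1, −0.16 for IFIT2, −0.09 for IFIT3 and −0.12 for IFIT5. This was not particular to the IFIT genes, since LIPA (−0.35) and RIGI (−0.07) were also lowest in that library. IFI44 and DDX60, other interferon-stimulated genes, were at −0.03 and −0.01 there, and neither was lowest in it. ISG15, a ubiquitin-like protein induced by interferon, was instead highest in that library, by 0.31. Without this library the log2 fold changes were 3.44 for IFIT1, 4.35 for IFIT2 and 4.34 for IFIT3. In bulk RNA, more cells with IFIT transcripts and more transcripts per cell cannot be told apart.

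The remaining family members were barely detected. IFIT1B, which lies between IFIT3 and IFIT1, had 0, 0 and 2 counts in siNC and 1, 1 and 2 in siTRIM28. A count of 0 allows up to 0.215 CPM in siNC replicate 1 and up to 0.256 CPM in siTRIM28 replicate 3, counting error only. The pseudogene IFIT6P had 1 count in siTRIM28 replicate 3 and 0 elsewhere. IFIT1P1, a pseudogene on chromosome 13, had 1 count in siTRIM28 replicate 2 and 0 elsewhere. The difference between the groups was thus measured in IFIT1, IFIT2 and IFIT3, while these 3 relatives stayed near the detection limit in both groups.

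LIPA, the gene of lysosomal acid lipase, is read from the opposite strand and spans 89213569 to 89414557. Its annotated span covers IFIT2, IFIT3 and IFIT1, and its end lies 10 bases from the start of IFIT5. LIPA had 124, 147 and 121 counts in siNC and 89, 119 and 101 in siTRIM28. Its groups overlapped, and the log2 fold change was −0.23 (standard error 0.152). The Benjamini-Hochberg adjusted p of edgeR's quasi-likelihood fit was 0.249. In the GENCODE v29 annotation, 65 of the 4101 exon bases of IFIT2 overlap exons of LIPA, and none of those of IFIT1, IFIT3 or IFIT5 do. The library was stranded but the strand setting of the counting is not given in the sources used here, so reads in the shared bases of IFIT2 may belong to either gene. A further gene, ENSG00000232110, spans 89283636 to 89292125 on the strand of IFIT2 and covers its annotated start. It had 0, 2 and 1 counts in siNC and 4, 3 and 10 in siTRIM28. Whether its exons share bases with those of IFIT2 was not tested, and a strand setting could not separate such reads.

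Within 500 kb of the IFIT span the table held 36 other genes, of which 10 were tested. By the edgeR test, 3 of these were called higher, where 21.3% of all genes tested were, and 1 lower, where 20.5% were. None of the 10 came near IFIT1, IFIT2 or IFIT3 in log2 fold change. The 3 that rose were STAMBPL1, a deubiquitinase (log2 fold change 0.63, standard error 0.0959, adjusted p = 0.000258), FAS, a death receptor (0.34, standard error 0.110, adjusted p = 0.0280), and KIF20B, a mitotic kinesin (0.60, standard error 0.0489, adjusted p = 2.16e-06). ACTA2, the smooth muscle actin, fell by 0.56 on the log2 scale (standard error 0.137, adjusted p = 0.00645). FAS was not called with DESeq2 (adjusted p = 0.100), nor with edgeR without siNC replicate 1 (adjusted p = 0.129) or 2 (0.123) or siTRIM28 replicate 2 (0.0974) or 3 (0.0833), nor with the close pairs of libraries summed (0.151). The others were not called, with log2 fold changes of −0.66 for ACTA2-AS1, −0.18 for PANK1, 0.38 for ENSG00000296045, −0.07 for ENSG00000286116 and −0.01 for ENSG00000235100. ACTA2-AS1 was called without siTRIM28 replicate 2 (−0.99, adjusted p = 0.0261). The nearest of the genes called, FAS, lay 268152 bases from the IFIT span, and CH25H, a sterol hydroxylase gene that lies closer and is itself known to respond to interferon, was at 0 in every library.

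**Figure D4:**
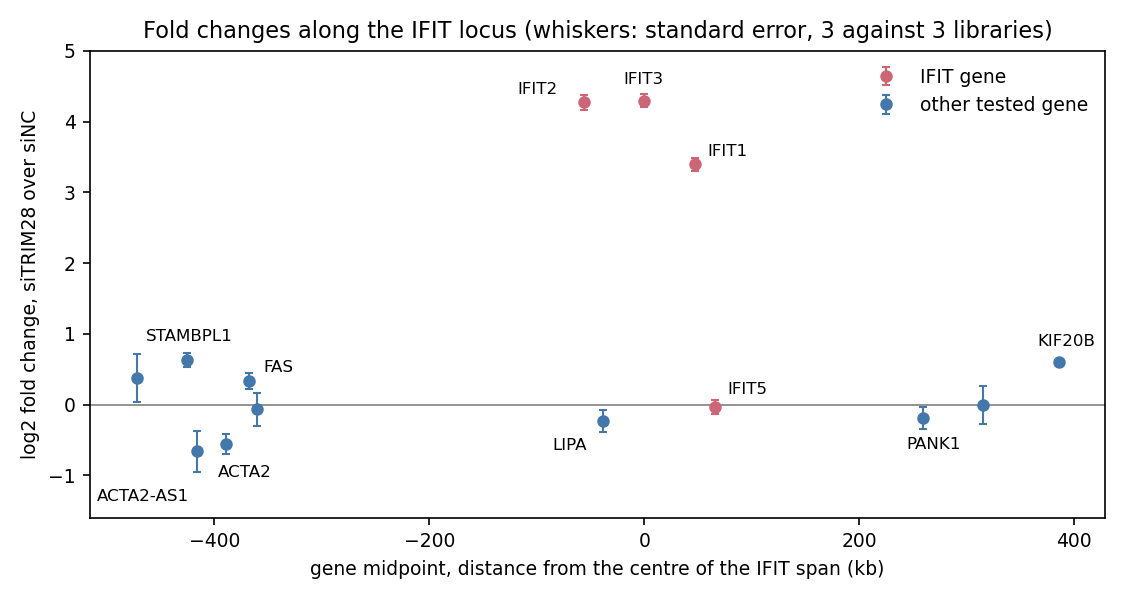
Log2 fold change of siTRIM28 over siNC, with its standard error, against the distance of each gene's midpoint from the centre of the IFIT span in kb, for the 4 IFIT genes (red) and the 10 other tested genes within 500 kb (blue). IFIT1, IFIT2 and IFIT3 stand between 3.39 and 4.29, whereas IFIT5 and every other gene lie between −0.66 and 0.63.

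The genes most like each IFIT gene were found by the root mean square difference of log2 CPM (prior count 2) over the 6 libraries, after each gene was centred on its own mean. IFIT2 and IFIT3 were nearest to each other, at 0.0744, and no gene outside the 4 came within 0.15 of either. IFIT1 lay 0.461 from IFIT2 and 0.474 from IFIT3. Outside the family the nearest to all 3 was ENSG00000279164, at 0.0781 from IFIT1, 0.467 from IFIT2 and 0.487 from IFIT3, a gene with 0.0742 CPM in siNC and 2.11 CPM in siTRIM28. This gene had 1 count in each siNC library and passed the count filter only through siTRIM28, and its closeness to IFIT1 rests on the prior count, since its fitted log2 fold change was 4.66 against 3.39 for IFIT1. Next came LINC03047, a long non-coding RNA, and OASL, an interferon-induced relative of the oligoadenylate synthetases, at 0.342 and 0.362 from IFIT1. For IFIT2 and IFIT3 OASL came before LINC03047, at 0.756 against 0.763 and at 0.747 against 0.771. OASL had 3 to 6 counts in siNC, so its distances also depend on the prior count. The fitted log2 fold changes were 3.20 for OASL and 2.80 for LINC03047. Outside the 4 IFIT genes, 10 genes lay within 0.5 of IFIT1 and 1 gene within 0.5 of IFIT2 and of IFIT3. IFIT5 was unlike its neighbours, with a distance of 1.69 to IFIT1, 2.13 to IFIT2 and 2.14 to IFIT3. There were 5140 genes within 0.15 of it, the nearest being OSMR, LBHD1 and MTA1.

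The other genes of the pathway were counted from 5 lists, none of which held an IFIT gene. Of 21 interferon genes, 20 were at 0 in all 6 libraries, IFNB1 among them, and the remaining one, IFNE, had at most 2 counts. Apart from these few IFNE counts, interferon transcripts were thus not detectable at this depth in the same libraries in which IFIT1, IFIT2 and IFIT3 differed. None of the 21 could be tested.

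Among RNA and DNA sensors and their adaptors, 6 of 14 tested genes rose and 3 fell, with a median log2 fold change of 0.20 against 0.02 over all genes tested. Over all genes tested 21.3% were called higher and 20.5% lower, so the 3 that fell were about the same share. Without siNC replicate 1 or without siTRIM28 replicate 2, only 3 of the 14 were called higher. RIGI, a sensor of triphosphate RNA, had 280, 322 and 288 counts in siNC and 974, 886 and 887 in siTRIM28. It rose by 1.73 on the log2 scale (standard error 0.0706, adjusted p = 1.24e-08, edgeR). IFIH1, the sensor of long duplex RNA, rose by 0.57 (adjusted p = 0.0131), and RNF135, a ligase that acts on RIGI, fell by 0.62 (adjusted p = 0.0120). IRF3, the factor activated below these sensors, had 0.09 (adjusted p = 0.303), and IRF7 was too low to test with at most 12 counts.

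Of the receptors and JAK-STAT components, 6 of 15 tested genes rose and none fell, against 21.3% higher and 20.5% lower over all genes, with a median of 0.13. USP18, which limits signalling at the receptor, rose by 0.41 (adjusted p = 0.0217), STAT2 by 0.39 (adjusted p = 0.00461) and IFNGR1 by 0.27 (adjusted p = 0.00824). IRF9, a DNA-binding partner of STAT2, had 0.00073 (adjusted p = 0.996). With DESeq2 only 3 of the 15 were called, and USP18 was not (adjusted p = 0.0940). With edgeR, USP18 was not called without siNC replicate 1 (adjusted p = 0.0649), siNC replicate 3 (0.0667) or siTRIM28 replicate 1 (0.0840), nor with the close pairs of libraries summed (0.0611). The whole range of this list, from −0.19 to 0.41, lay far below the values of IFIT1, IFIT2 and IFIT3.

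Of 37 tested genes among 50 other interferon-stimulated genes, 16 rose, 3 fell and 18 were not called, against 21.3% higher and 20.5% lower over all genes, with a median of 0.27. These numbers leave out the listed genes that were too low to test. Those had at most 12 counts in any library, among them RSAD2 (at most 3), IFI44L (at most 6) and MX2 (at most 3). OASL was closest in size to IFIT1, IFIT2 and IFIT3, with 6, 3 and 6 counts in siNC and 50, 37 and 44 in siTRIM28, up by 3.20 on the log2 scale (standard error 0.282, adjusted p = 3.86e-06). It passed the count filter only through the siTRIM28 libraries, where it was high, so its place next to the IFIT genes is a description. DDX60, a helicase induced by interferon, rose by 2.37 (adjusted p = 1.04e-09) and IFI44 by 1.88 (adjusted p = 5.16e-09). ISG15 rose by 1.36 (adjusted p = 2.57e-05). OAS1 had 0.48 (adjusted p = 0.134), and MX1, a standard marker of the interferon response, had 12, 10 and 8 counts in siNC and 9, 3 and 9 in siTRIM28, too few to test. Every tested gene of this list thus lay below IFIT1, the lowest of the 3 IFIT genes that were higher, in log2 fold change. The gap between OASL and IFIT1 was smaller than the standard error of OASL, so their order is not settled. The IFIT genes were chosen from this contrast, so nothing is read from their place above the list. Of the 42 listed genes with a promoter entry, 30 held the motif shown above in at least 1 window. This counts genes, over all windows of each, while the 3.57% given above counts single windows, so they are unlike measures. The share over all genes was not counted.

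The enzymes that make, bind or remove the mRNA cap, the structure that IFIT1 reads, were called in both directions. Of 12 tested, 4 rose and 4 fell, against 21.3% higher and 20.5% lower over all genes, with a median of −0.05. DCP2, the decapping enzyme, rose by 0.90 (adjusted p = 4.59e-07) and CMTR2, which methylates the second transcribed nucleotide, by 0.75 (adjusted p = 1.89e-06). RNGTT, which adds the cap, fell by 0.65 (adjusted p = 1.65e-05).

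**Figure D5:**
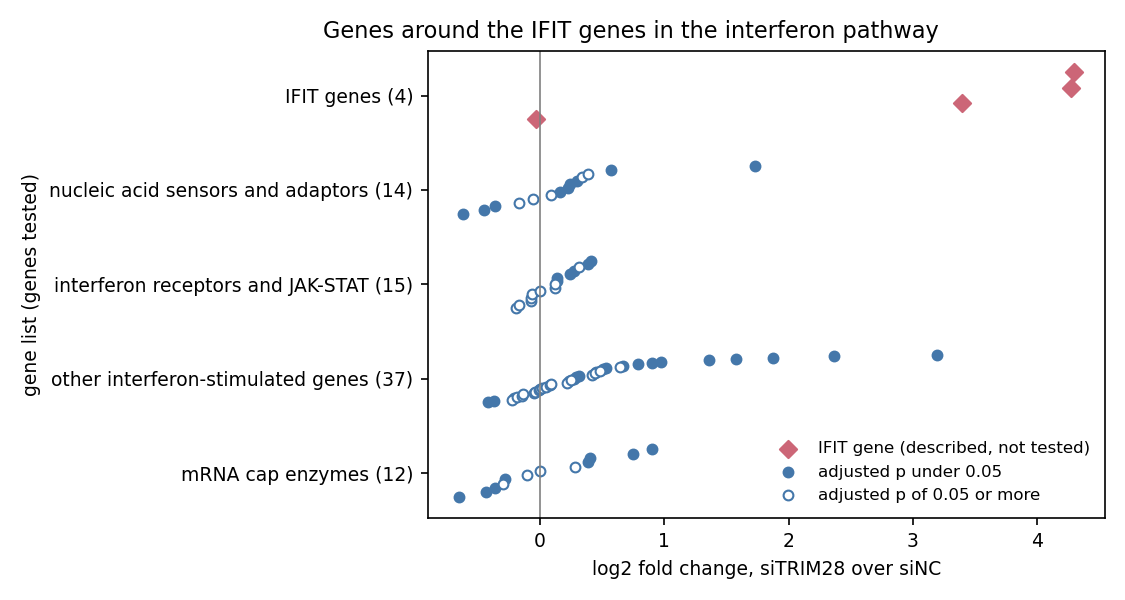
Log2 fold changes of siTRIM28 over siNC for the 4 IFIT genes (diamonds) and the tested genes of 4 lists, filled where edgeR's adjusted p was under 0.05. IFIT1, IFIT2 and IFIT3 lie to the right of every other gene shown, the nearest being OASL at 3.20, and IFIT5 lies at −0.03 among the genes that were not called.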

How the data were processed

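Poly(A) RNA of 6 T24 cultures was sequenced as stranded libraries, 3 siNC and 3 siTRIM28, all of batch 1 per the labels. The deposited table holds raw read counts for 78932 genes, not normalized, beside GRCh38 coordinates and gene lengths. The submitters' processing notes name fastp 0.23.1, STAR 2.7.6a and featureCounts. The strand setting, the annotation release and the treatment of duplicate or multiply mapped reads are not given in the sources used here. A second deposited table, RPKM values of 1092 genes that the authors picked as differentially expressed, was not used.

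Counts were read by gene symbol for the IFIT genes. The 18474 genes that reached 10 counts in 3 or more of the 6 libraries were scaled by TMM and fitted by edgeR's quasi-likelihood method (version 4.0.16, R 4.3.3), with the siRNA group as the model's sole factor. Benjamini-Hochberg adjustment ran over all of these genes, with a threshold of 0.05. Standard errors were obtained from the log2 fold change and its F statistic. CPM values are TMM-scaled, and means are given with the SD over 3 libraries. The labels do not say that the cultures were independent, so p-values measure the spread between these samples, which may be technical. The limit that a count of 0 allows is 3 counts of the library total. The fit was tested on simulated data first.

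The IFIT genes and the gene lists were chosen with earlier results of these data known. The genes named are the 4 members, TRIM28, every tested gene within 500 kb, the 3 tested genes most like each member, the 3 called genes of each list with the largest absolute log2 fold change, and STAT2, IRF9, IRF3, IRF7, RIGI, IFIH1, ISG15, MX1, OAS1 and IFNB1 whatever their change. One gene that this rule names is not reported here. IFNE, CH25H, ENSG00000232110, RSAD2, IFI44L, MX2 and the IFIT relatives IFIT1B, IFIT6P and IFIT1P1 were named after their values were seen. The alternatives were DESeq2 1.42.0, limma-voom (limma 3.58.1), scaling by RLE, the upper quartile or the total count, other filters, a block on the replicate number, leaving out single libraries, close pairs of libraries summed, an added fold limit of 0.58 (log2), a window of 1000 kb and, for the members, the ratio of mean CPM and, chosen after seeing the data, the exon bases of GENCODE v29 as gene length. Promoter windows came from a RefSeq table, and exon overlaps from GENCODE v29. Figures were made with Python 3.11.15 and matplotlib 3.10.9.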

Additional observations from a re-analysis of the deposited data

How the results depend on the processing

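When single libraries were left out, the log2 fold change lay between 3.33 and 3.46 for IFIT1, 4.20 and 4.36 for IFIT2, 4.21 and 4.41 for IFIT3, and −0.07 and 0.03 for IFIT5. Over the other 10 alternatives it lay between 3.36 and 3.43 for IFIT1, 4.25 and 4.31 for IFIT2, 4.28 and 4.33 for IFIT3, and −0.04 and 0.01 for IFIT5, whose sign turned with upper-quartile scaling and without siTRIM28 replicate 1. Same-numbered siNC and siTRIM28 libraries had deviations that correlated at 0.0523, −0.0118 and 0.0374. Differently numbered ones lay between −0.0655 and 0.0387, so a pairing of the cultures by number was neither shown nor excluded. With the replicate number as a block, the log2 fold changes were 3.39, 4.27, 4.29 and −0.03 for IFIT1, IFIT2, IFIT3 and IFIT5, and 7910 genes were called in place of 7723. Fewer were called with DESeq2 (5878) and with the close pairs of libraries summed (5935). Leaving out single libraries gave 6344 to 8130.

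An added limit of 0.58 on the absolute log2 fold change left 3144 of all genes called, 2 sensors and adaptors, 0 receptors and JAK-STAT genes, 9 other interferon-stimulated genes, 3 cap enzymes and 2 neighbours. Of these counts only the receptors and JAK-STAT genes moved by over 1.5 times elsewhere, to 3 with DESeq2 and 3 with the close pairs of libraries summed. The sensors and adaptors called higher, 6 in all, came to 3 without siNC replicate 1 or siTRIM28 replicate 2. With the exon bases of GENCODE v29 as length, a choice made after seeing the data, the level of IFIT3 was 1.32 CPM per kb in siNC and 25.96 in siTRIM28, and that of IFIT5 2.34 and 2.30. OASL and ENSG00000279164 missed the count filter, and gave no value, whenever a siTRIM28 library was left out. The limit is the count of 39 to 71 reads per siNC library for IFIT1, IFIT2 and IFIT3, and the use of 1 cell line and 1 siRNA treatment.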
